A study of Mus musculus with 16 samples.

Results

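The vessel content of fascicles from the tail tendon of mice, strands made mostly of collagen, was examined through 10 marker genes of endothelial cells out of 25719 genes listed in each library. They were chosen by name and matched by Ensembl identifier, and all 10 were measured: Pecam1, Cdh5 and Cldn5 for endothelium in general, Emcn, Ackr1 and Plvap for capillaries and veins, Vwf for larger vessels, Gja5 for arteries, and Lyve1 and Prox1 for lymphatic vessels. RNA-seq counts came from 8 wild type libraries and 8 libraries of the genotype ScxCre;Vhlf/f, called knockout here, in which Cre driven by the tendon gene Scx acts on floxed Vhl. Each library holds RNA of all cells in the dissected strands, endothelial cells included, and the age and sex of the mice, and whether the controls carried a floxed allele, are not given in the sources used here. The labels also do not say that each library came from a separate mouse, so the p-values measure the spread between these libraries.

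Blood and lymphatic vessels are lined by endothelial cells, which are joined by the adhesion proteins that Pecam1 and Cdh5 encode. Arteries, capillaries, veins and lymphatics switch on different further genes, so that a set of markers can tell a vessel type where 1 gene cannot. Tendon is known as a tissue with few vessels, and Vhl encodes the subunit through which a ubiquitin ligase captures hypoxia-inducible factors, which are known for driving vessel growth.

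Vhl itself was measured at 9.34 ± 1.25 CPM (counts scaled to library size with TMM factors, mean ± SD, n = 8 libraries throughout) in knockout libraries and 20.4 ± 3.69 CPM in the wild type, and the groups did not overlap. Total counts ran from 10488355 to 18753254 in knockout libraries and from 10792900 to 16379401 in the wild type. The summed level of 9 tenocyte markers, collagens included, was 77470 to 180900 CPM in knockout libraries and 130700 to 380300 CPM in the wild type, so the labelled tissue was present in all libraries. The threshold was an adjusted p under 0.05, and 7150 of 14803 tested genes passed it (48.3%). Of the tested genes 25.6% were higher and 22.7% lower in the knockout, and those whose groups did not overlap made up 10.8% higher and 8.61% lower. With total counts in place of TMM the median log2 fold change of all tested genes moved from 0.02 to 0.32, and the share of called genes that were higher from 53.0% to 85.3%. The log2 fold changes below use TMM and are relative to that scale.

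Of the 10 genes, 5 rose in the knockout, 1 fell, 2 did not pass the threshold, and 2 did not pass the expression filter. Those that rose were Pecam1, Cdh5, Vwf, Plvap and Gja5, the one that fell was Lyve1, and Ackr1 and Prox1 stayed short of the threshold. Cldn5 and Emcn were not tested. Each exceeded the filter's cutoff in 7 knockout libraries and in no wild type library, and both passed the filter without knockout library 2. The groups did not overlap for Pecam1, Vwf, Plvap and Lyve1. With 48.3% of all tested genes past the threshold, these counts are a description, and Plvap exceeded the filter's cutoff in no wild type library and Pecam1 in only 2. In bulk RNA, fewer endothelial cells of a type and less RNA per cell cannot be told apart.

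**Figure D1:**
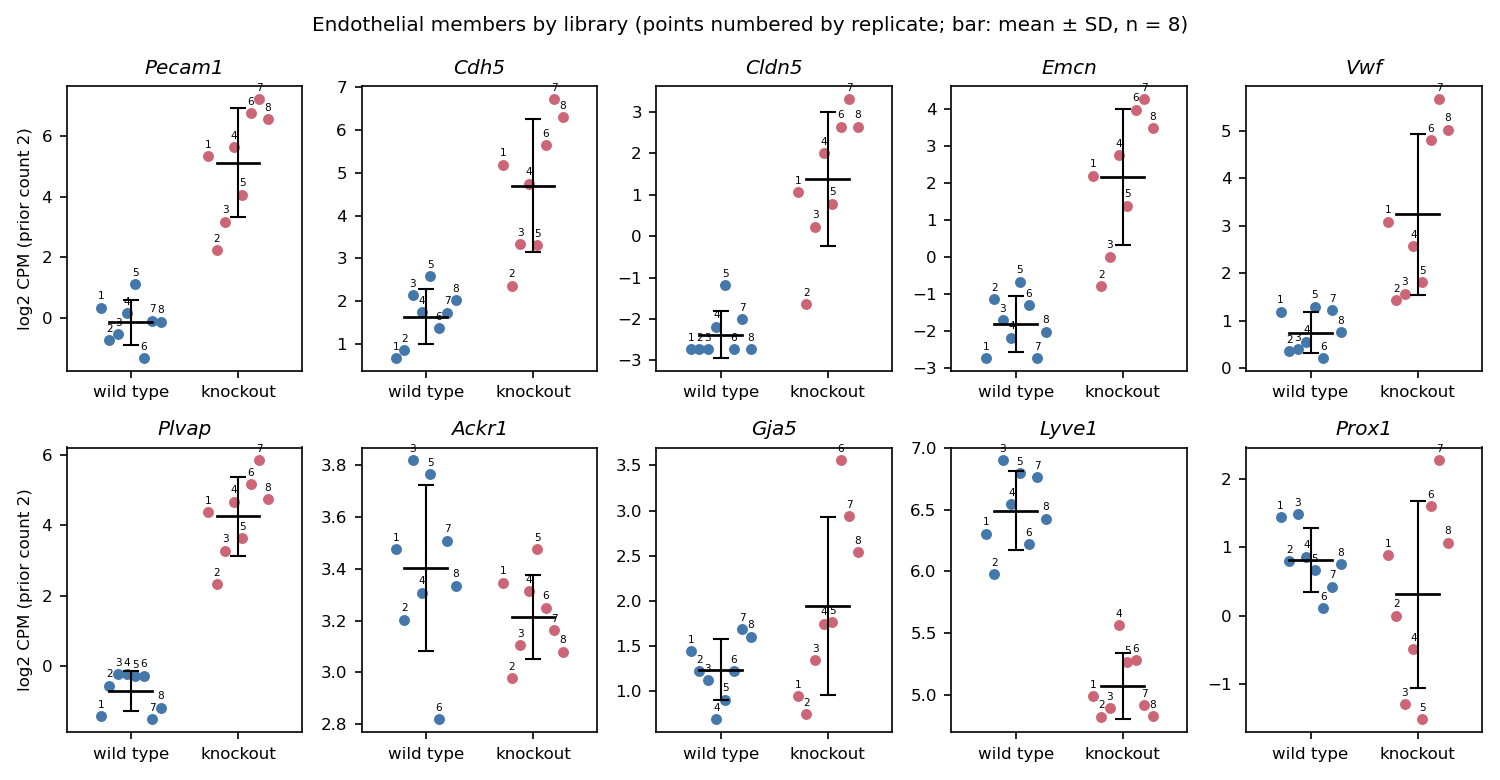
Level of each of the 10 endothelial genes on the log2 CPM scale (prior count 2, y axis, a separate range for each panel) in 8 wild type and 8 knockout libraries (x axis). Points are libraries numbered by replicate, and bars are mean ± SD. Knockout libraries 6, 7 and 8 hold the 3 highest knockout values of Pecam1, Cdh5, Cldn5, Emcn, Vwf, Plvap, Gja5 and Prox1, and the 8 knockout points of Lyve1 lie below all wild type points.

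Pecam1 (ENSMUSG00000020717, chromosome 11) encodes an adhesion molecule of endothelial junctions that platelets and leukocytes also carry. In the knockout its level ran from 4.58 CPM through a median of 44.6 to 148 CPM, and in the wild type from 0.253 through 0.783 to 2.01 CPM. Even the lowest knockout library was above the highest wild type library, although the knockout libraries themselves spanned 32.3-fold. On the log2 scale Pecam1 was higher by 6.11 (SE 0.812, Benjamini-Hochberg adjusted p = 1.72e-05 by the edgeR quasi-likelihood test).

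Cdh5 (ENSMUSG00000031871, chromosome 8) encodes VE-cadherin, the cadherin of endothelial cell contacts. It lay at 5.01, 31.4 and 105 CPM (lowest, median, highest) in knockout libraries and at 1.46, 3.19 and 5.85 CPM in the wild type. The groups overlapped through knockout library 2 alone, at 5.01 CPM against 5.85 CPM in wild type library 5, and the other 7 knockout libraries were above all wild type libraries. Cdh5 differed by 3.62 on the log2 scale (SE 0.629, Benjamini-Hochberg adjusted p = 2.12e-04 by the edgeR quasi-likelihood test).

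Cldn5 (ENSMUSG00000041378, chromosome 16) encodes a tight junction claudin of endothelium, and Emcn (ENSMUSG00000054690, chromosome 3) a sialoglycoprotein of capillary and venous endothelium. Cldn5 had 2 to 203 counts in the knockout libraries and 0 to 3 counts in the wild type libraries, where the 8 libraries held 5 counts together. Emcn had 5 to 396 counts in knockout libraries and 0 to 5 in the wild type, 16 in all. For both genes 7 knockout libraries were above all wild type libraries, and knockout library 2 was within the wild type range. The pooled counts per library size were 78.4-fold higher in the knockout for Cldn5 (95% exact Clopper-Pearson interval 33.4 to 242) and 49.5-fold higher for Emcn (30.3 to 86.9), intervals that cover counting error only and not the spread between libraries. Fitted with no expression filter, where 21.4% of genes were higher, Cldn5 differed by 5.92 (Benjamini-Hochberg adjusted p = 6.32e-05 by the edgeR quasi-likelihood test) and Emcn by 5.39 (adjusted p = 1.68e-04) on the log2 scale, values that depend on the prior count at such low wild type levels.

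Promoter sequence was matched for 5 of the 10 genes in the RefSeq table of build GRCm38.p6: Cldn5, Emcn, Ackr1, Gja5 and Prox1. The 250 bases before the start of Cldn5 (chr16:18776597-18776846, plus strand) and Emcn (chr3:137340828-137341077, plus strand) are shown because both genes were near 0 in the wild type and moved together in the knockout. Capitals mark AGGAAG or CGGAAG on either strand (CTTCCT or CTTCCG as read here), letters that ETS factors, a family with several endothelial members, are known to bind.
Cldn5: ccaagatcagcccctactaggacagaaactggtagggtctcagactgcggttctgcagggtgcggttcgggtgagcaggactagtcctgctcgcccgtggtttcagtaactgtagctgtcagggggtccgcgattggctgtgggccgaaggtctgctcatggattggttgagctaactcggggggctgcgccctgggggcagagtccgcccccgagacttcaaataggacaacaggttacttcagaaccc
Emcn: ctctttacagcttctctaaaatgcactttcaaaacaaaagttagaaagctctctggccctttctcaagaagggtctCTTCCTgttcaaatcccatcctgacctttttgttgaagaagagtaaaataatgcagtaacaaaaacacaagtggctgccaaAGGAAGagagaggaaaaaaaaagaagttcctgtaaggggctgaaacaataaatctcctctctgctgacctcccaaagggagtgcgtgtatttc
Emcn held 2 such matches and Cldn5 none. The core of the hypoxia response element (ACGTG or GCGTG, both strands) occurred once in Emcn, 11 to 7 bases before the start, and not in Cldn5. Of 32851 mouse promoters of the same length, 39.2% held the ETS letters and 38.6% the hypoxia letters. Within the windows of the 5 matched genes, no ETS match overlapped a hypoxia match. These matches are a description of letters in this window.

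Vwf (ENSMUSG00000001930, chromosome 6) encodes von Willebrand factor, the clotting protein stored in endothelial cells and made by megakaryocytes as well. Its levels were 2.55, 7.05 and 50.6 CPM in the knockout group and 1.01, 1.43 and 2.30 CPM in the wild type. The groups did not overlap, but the 5 lowest knockout libraries were at or under 8.32 CPM and libraries 6, 7 and 8 at 27.8, 50.6 and 32.3 CPM. The log2 fold change was 3.41 (SE 0.703, Benjamini-Hochberg adjusted p = 8.85e-04 by the edgeR quasi-likelihood test). Without the 4 libraries richest in skeletal muscle markers (knockout 6, 7 and 8 and wild type 5) it was 1.62 (SE 0.307, adjusted p = 4.31e-04).

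Plvap (ENSMUSG00000034845, chromosome 8) encodes the protein of the diaphragms that span the openings of fenestrated capillaries and venules. It lay at 4.84, 22.9 and 57.2 CPM in knockout libraries and at 0.199, 0.600 and 0.701 CPM in the wild type, which is 2 to 10 counts. Every knockout library was far above every wild type library. Plvap was higher by 5.52 on the log2 scale (SE 0.544, Benjamini-Hochberg adjusted p = 4.79e-07 by the edgeR quasi-likelihood test).

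Ackr1 (ENSMUSG00000037872, chromosome 1) encodes an atypical chemokine receptor of venular endothelium and red blood cells. Its levels were 7.73, 9.09 and 11.0 CPM in the knockout group and 6.91, 10.5 and 13.95 CPM in the wild type. The knockout values lay within the range of the wild type values. Ackr1 differed by -0.21 on the log2 scale (SE 0.123, Benjamini-Hochberg adjusted p = 0.166 by the edgeR quasi-likelihood test), and without wild type library 6, the lowest, it was -0.28 (adjusted p = 0.0381). With total counts it changed sign, to 0.07 (adjusted p = 0.673). In GENCODE M21 its exons overlap those of Cadm3, an adhesion gene on the same strand at 61.5 ± 8.57 CPM in knockout libraries and 79.3 ± 19.8 CPM in the wild type, so its counts are uncertain. The summed level of 7 erythroid markers was above the wild type range in all 8 knockout libraries (77.7 to 562 against 15.1 to 50.7 CPM). Over these libraries Ackr1 and the erythroid sum showed r = 0.273 and rho = 0.214 (exact permutation p = 0.507 and 0.619, adjusted over 20 relations 0.844 and 0.935). Beyond this relation the part of red cells in the level of Ackr1 was not tested.

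Gja5 (ENSMUSG00000057123, chromosome 3) encodes a gap junction protein of arterial endothelium. It lay at 1.53, 3.23 and 11.6 CPM in knockout libraries and at 1.46, 2.19 and 3.08 CPM in the wild type. The groups overlapped, and 5 knockout libraries were above all wild type libraries. The log2 fold change was 1.06 (SE 0.370, Benjamini-Hochberg adjusted p = 0.0248 by the edgeR quasi-likelihood test). It missed the threshold without knockout library 6 (0.70, adjusted p = 0.0646), without knockout library 7 (0.92, adjusted p = 0.0527) and without the 4 muscle-rich libraries, where it was 0.09 (SE 0.234, adjusted p = 0.803). The exons of Gja5 overlap those of Gpr89 on the other strand, a gene at 25.7 ± 1.96 CPM in knockout libraries and 25.1 ± 1.69 CPM in the wild type, and the use of strand in counting is not given in the sources used here.

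The same stretch of promoter is shown for Ackr1 (chr1:173333504-173333753, minus strand) and Gja5 (chr3:97032152-97032401, plus strand) to set beside Cldn5 and Emcn, since these genes differed less between the genotypes.
Ackr1: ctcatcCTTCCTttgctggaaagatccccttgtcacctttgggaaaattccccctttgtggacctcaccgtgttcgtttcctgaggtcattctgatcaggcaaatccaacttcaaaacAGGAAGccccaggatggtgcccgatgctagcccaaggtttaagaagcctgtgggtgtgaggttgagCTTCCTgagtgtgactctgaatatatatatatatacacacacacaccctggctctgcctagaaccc
Gja5: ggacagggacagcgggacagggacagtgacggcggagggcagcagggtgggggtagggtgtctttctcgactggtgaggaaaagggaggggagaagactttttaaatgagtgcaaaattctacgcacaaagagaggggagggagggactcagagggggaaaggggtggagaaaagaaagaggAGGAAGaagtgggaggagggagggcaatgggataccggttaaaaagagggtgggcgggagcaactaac
Ackr1 held 3 matches to the ETS letters and Gja5 held 1, and neither held the hypoxia letters. Prox1, with 2 start sites in the table, held no match to either in both windows.

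Lyve1 (ENSMUSG00000030787, chromosome 7) encodes a hyaluronan receptor of lymphatic endothelium and of some tissue macrophages. Its wild type level, the highest of the 10 genes per kilobase as well, was 63.0, 89.5 and 119 CPM, and its knockout level was 28.3, 30.9 and 47.3 CPM. The groups did not overlap, and Lyve1 varied little within a genotype, by 1.67-fold in knockout libraries and 1.89-fold in the wild type. The log2 fold change was -1.43 (SE 0.137, Benjamini-Hochberg adjusted p = 8.86e-08 by the edgeR quasi-likelihood test), and it lay between -1.51 and -1.14 over 27 alternatives. Of 13 macrophage markers, all tested, 4 were higher and 2 lower, against 25.6% and 22.7% of all tested genes, so these counts are near the background. The summed level of the 13 markers was 1428 to 2094 CPM in knockout libraries and 1286 to 1879 CPM in the wild type. The 2 that fell were Folr2, a folate receptor, by 0.87 on the log2 scale (adjusted p = 4.29e-06), and Timd4, a phosphatidylserine receptor, by 1.75 (adjusted p = 8.09e-07), both known in tissue-resident macrophages. Those that rose were Mpeg1 (1.96), Lyz2 (0.41), Adgre1 (0.41) and Cd163 (0.38), the last a scavenger receptor also known in resident macrophages, and Mrc1 (0.10, adjusted p = 0.397, but 0.41 and adjusted p = 0.00103 with total counts) and Csf1r (-0.12, adjusted p = 0.350) did not pass. The part of macrophages in the level of Lyve1 was not tested.

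Prox1 (ENSMUSG00000010175, chromosome 1) encodes the homeobox factor that sets lymphatic endothelial identity and is also made in skeletal muscle. It lay at 0.198, 1.27 and 4.70 CPM in the knockout, from 3 to 97 counts, and at 0.927, 1.56 and 2.65 CPM in the wild type. Knockout libraries fell on both sides of the wild type, with 2 above all wild type libraries (6 and 7) and 4 below all of them (2, 3, 4 and 5). Prox1 differed by 0.00 on the log2 scale (SE 0.474, Benjamini-Hochberg adjusted p = 0.994 by the edgeR quasi-likelihood test). Without the 4 muscle-rich libraries it was -1.33 (SE 0.437, adjusted p = 0.0228). Exons of Prox1 overlap those of the antisense gene Prox1os, so its counts are uncertain.

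Per kilobase of exon (GENCODE M21), the order of the mean levels differed between the genotypes. In the wild type Lyve1 stood at 31.4 and Ackr1 at 7.58 CPM per kilobase, followed by Cdh5 at 0.774, Gja5 at 0.395, Plvap at 0.251, Prox1 at 0.202, Pecam1 at 0.139 and Vwf at 0.0995, with Cldn5 and Emcn last, at 0.0403 and 0.0313. In the knockout Plvap at 12.1, Lyve1 at 11.7, Cdh5 at 9.53, Pecam1 at 9.41 and Ackr1 at 6.53 came first, then Cldn5 at 2.70, Emcn at 1.40, Vwf at 1.04, Gja5 at 0.804 and Prox1 at 0.195. In the knockout the first 4 means differed by less than the SDs of Plvap, Cdh5 and Pecam1, which were 0.700, 0.896 and 0.895 of their means. The neighbours from Cldn5 down also differed by less than or about their SDs. Lyve1 and Ackr1, whose SDs were 0.199 and 0.115 of their means, differed by more. In the wild type Lyve1 and Ackr1 differed by far more than their spread, with SDs of 0.214 and 0.215 of their means, and Ackr1 and Cdh5 did too, whereas the neighbours from Cdh5 down differed by less than or about their SDs.

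Within the knockout most of the blood endothelial genes, but not Ackr1, rose and fell together from library to library. Over the 8 knockout libraries the log2 CPM of Pecam1 correlated with Emcn at Pearson's r = 0.996 and Spearman's rho = 1.00 (exact permutation tests, p = 2.48e-05 and 4.96e-05, the smallest the permutations can give, adjusted over 18 relations 1.49e-04 and 2.98e-04). The r with Plvap was 0.980, with Cldn5 0.973, with Cdh5 0.970 and with Vwf 0.928, and adjusted p-values of these 4 ran from 1.49e-04 to 0.00589 (exact permutation tests), with rho between 0.929 and 1.00. Without the 2 libraries farthest from the median of Pecam1, r for these 5 genes lay between 0.950 and 0.989. The libraries left out were knockout 2 and 3, the lowest in Pecam1. The muscle-rich knockout libraries stayed in, and their levels of Pecam1 and of these 5 genes were above those of all other knockout libraries. These r values therefore include the split between muscle-rich and other libraries, and r among the other knockout libraries alone was not tested. Gja5 followed at r = 0.812 (rho = 0.857, exact permutation p = 0.0167 and 0.0107, adjusted 0.0430 and 0.0275), and without those 2 libraries r was 0.732 over the 6 that remained (exact permutation p = 0.0931). Prox1 reached r = 0.754 (rho = 0.786, exact permutation p = 0.0361 and 0.0279, adjusted 0.0774 and 0.0628). Lyve1 and Ackr1 showed r = 0.226 each (rho = 0.381 and 0.143, exact permutation p = 0.590 and 0.587 for r, 0.360 and 0.752 for rho, adjusted 0.540 or more), and for Ackr1 r turned to -0.885 without the 2 farthest libraries. In the wild type Pecam1 had only 3 to 21 counts. Vwf alone passed there, at r = 0.834 and rho = 0.881 (exact permutation tests, adjusted p = 0.0193 and 0.0217). Without the 2 libraries farthest from the median r for Vwf was 0.702 (exact permutation p = 0.128). With so few counts of Pecam1 the wild type correlations are no finding. Among 13408 other genes with a mean log2 CPM of at least 1, those most like Pecam1 over the 8 knockout libraries were Flt1 (r = 0.998), Adgrl4 (0.994), Myh11 (0.993), Rgs5 (0.993) and Mmrn2 (0.988), given as a description. Flt1 encodes a VEGF receptor, Adgrl4 and Mmrn2 endothelial surface and matrix proteins, and Myh11 and Rgs5 are genes of smooth muscle and pericytes.

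Skeletal muscle RNA varied strongly between the libraries and moved with several of these genes. The summed level of 14 muscle markers was 377.5 to 23130 CPM in knockout libraries and 96.2 to 10380 CPM in the wild type. None of the 14 was at 0 in all libraries, and 1 of 14, Myh2, was higher, against 25.6% of all tested genes. In knockout libraries 6, 7 and 8 and wild type library 5 these markers took more than 0.5% of the counts. The knockout libraries form 2 clusters on this measure, 15900 CPM and above against 3633 CPM and below, so no correlation is given. Pecam1 was 93.8 to 148 CPM in the 3 rich libraries and 4.58 to 49.5 CPM in the other 5. Wild type library 5 had 10380 CPM of muscle markers and 2.01 CPM of Pecam1, which is the highest wild type level of Pecam1 and below the lowest knockout level. This library also held the highest wild type levels of Cdh5, Cldn5, Emcn and Vwf. Knockout library 5, the lowest of its group in muscle at 377.5 CPM, had 16.6 CPM of Pecam1.

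**Figure D2:**
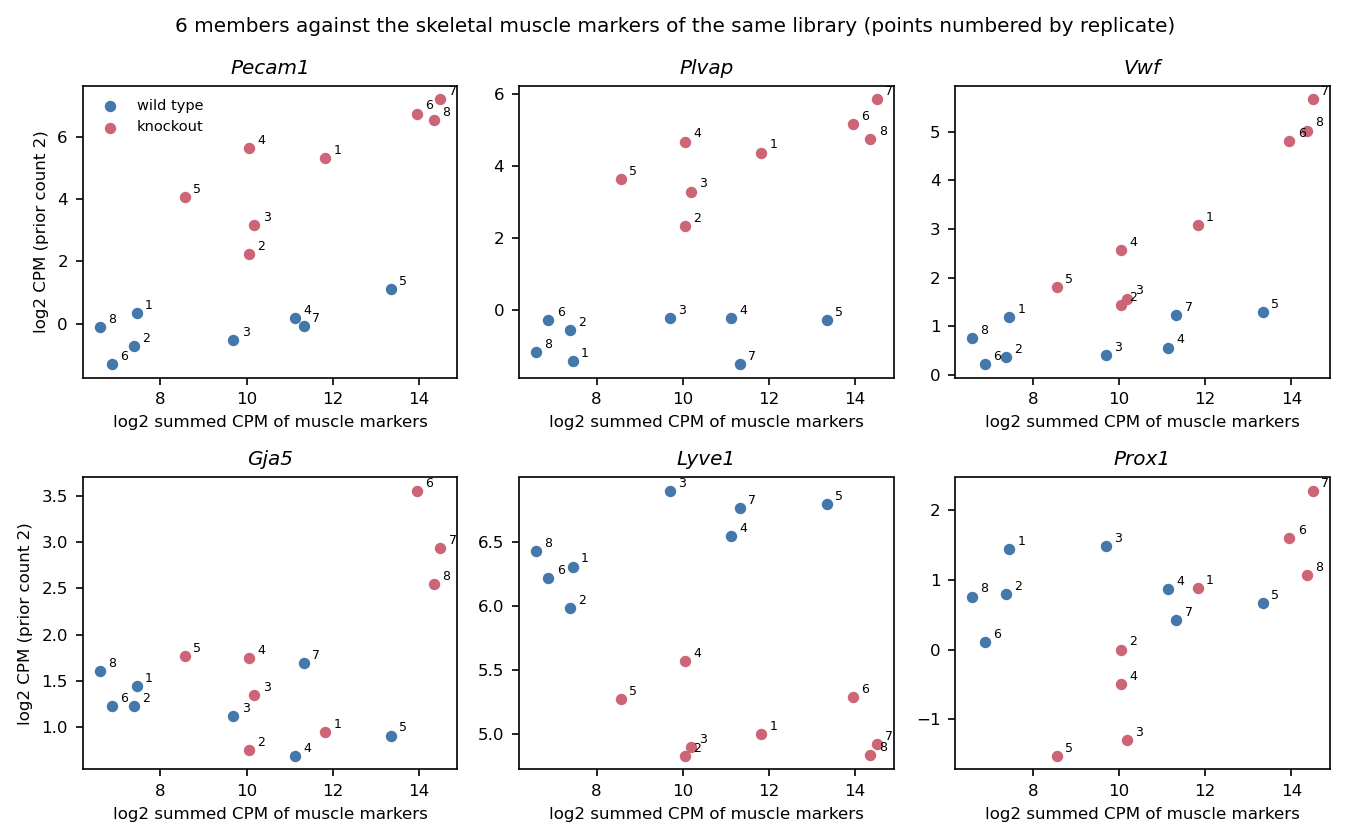
Level of 6 endothelial genes (y axis, log2 CPM, prior count 2) against the summed CPM of 14 skeletal muscle markers in the same library (x axis, log2 scale). Points are libraries, coloured by genotype and numbered by replicate. Knockout libraries 6, 7 and 8 lie at the right and carry the 3 highest knockout levels of Pecam1, Vwf, Gja5 and Prox1, and wild type library 5, also rich in muscle, has the highest wild type level of Pecam1 and Vwf and lies below all knockout libraries for both.

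Without the 4 muscle-rich libraries, 5 knockout and 7 wild type libraries remained, and 4 of the 8 tested genes were higher and 2 lower, against 21.9% and 19.0% of 14900 tested genes. Pecam1 differed by 5.10 (SE 0.647), Plvap by 4.84 (SE 0.421), Cdh5 by 2.59 (SE 0.465) and Lyve1 by -1.34 (SE 0.165) on the log2 scale, with adjusted p-values from 3.16e-07 to 6.01e-04 (Benjamini-Hochberg over all tested genes, edgeR quasi-likelihood test). With no filter, Cldn5 differed by 5.63 and Emcn by 4.34 in these libraries (adjusted p = 1.83e-05 and 3.59e-04). In a fit of all 16 libraries with a term for muscle, 4 genes were higher and 1 lower, against 23.6% and 20.4% of all tested genes, Pecam1 by 5.03, Plvap by 4.83, Cdh5 by 2.51, Vwf by 1.99 and Lyve1 by -1.50. Gja5, at 0.63 (adjusted p = 0.230), and Prox1, at -0.73 (adjusted p = 0.265), did not pass in that fit.

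**Figure D3:**
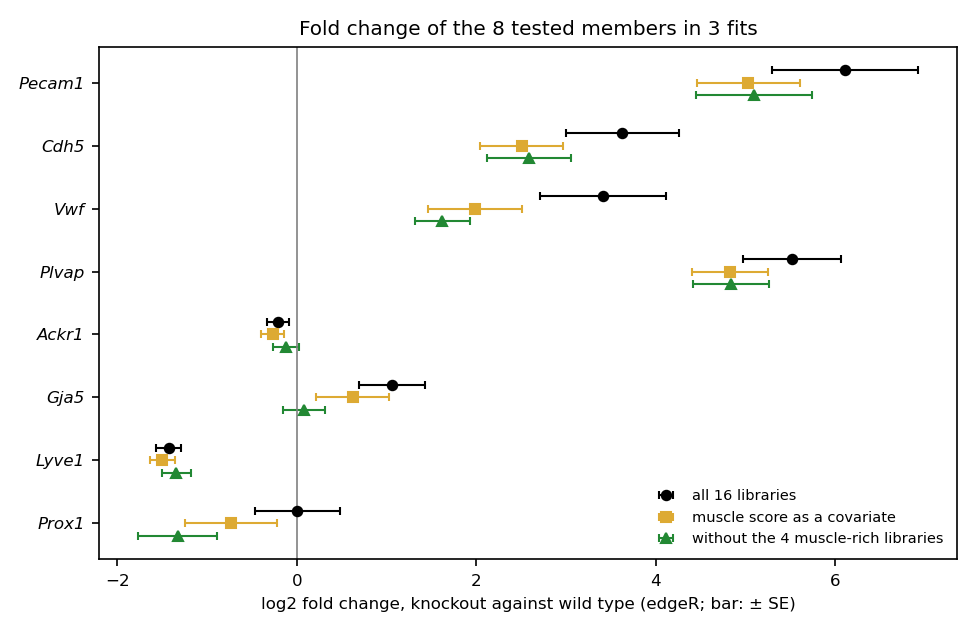
Log2 fold change of knockout against wild type (x axis, bars are ± SE from edgeR) for the 8 tested endothelial genes (y axis) in 3 fits: all 16 libraries, the same 16 with the muscle score as a term, and without the 4 muscle-rich libraries. Pecam1 moves from 6.11 to 5.03 and 5.10, Cdh5 from 3.62 to 2.51 and 2.59, Vwf from 3.41 to 1.99 and 1.62, and Gja5 from 1.06 to 0.63 and 0.09, and Lyve1 lies between -1.50 and -1.34.

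Markers of other cell types differed as well. As the background for the counts in this paragraph and the next, 25.6% of all tested genes were higher and 22.7% lower. Several of these lists hold few tested genes, so their counts are a description. Of 12 mural cell markers (pericytes and smooth muscle) 9 were tested, 6 were higher and 1 lower, and their sum was 340 to 1647 CPM in knockout libraries and 358 to 476 CPM in the wild type, with 5 knockout libraries above all wild type libraries. Rgs5, a pericyte gene, rose to 307 ± 272 CPM, from 4.53 ± 6.82 CPM (a log2 change of 6.11 with SE 1.01, Benjamini-Hochberg adjusted p = 1.49e-04 by the edgeR quasi-likelihood test). Mcam, an adhesion molecule, rose by 5.61 and the receptor gene Notch3 by 4.22, and exons of both overlap those of antisense genes, so their counts are uncertain. Of 2 other genes of pericytes, Cspg4 was at -0.27 (adjusted p = 0.0319, but 0.025 and adjusted p = 0.838 with total counts) and Pdgfrb at -0.20 (adjusted p = 0.279), and the smooth muscle actin Acta2 was at 0.66 (adjusted p = 0.168). All 5 tested erythroid markers of 7, mostly globins with near-identical copies, were higher. No relation of the erythroid sum to an endothelial gene passed over the 8 knockout libraries (r = -0.309 and rho = -0.143 with Pecam1, exact permutation p = 0.445 and 0.752, adjusted over 20 relations 0.810 and 0.935). For the macrophage sum and Pecam1 r was -0.0115 and rho -0.0476 (exact permutation p = 0.977 and 0.935, adjusted 0.977 and 0.935), and over all 20 relations the lowest adjusted p for r was 0.789. Leaving out the 2 farthest libraries gave -0.287 for the erythroid and 0.215 for the macrophage sum.

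Platelet markers, which could carry Vwf and Pecam1, summed to 43.4 to 79.8 CPM in knockout libraries and 64.7 to 101 CPM in the wild type, and of 4 tested of 8, 1 was higher and 2 lower. Adipocyte markers summed to at most 16.1 CPM in knockout libraries and 1.01 CPM in the wild type, lymphocyte markers to at most 1.36 and 1.18 CPM, and none of these was tested. Of 4 tested Schwann cell markers 1 was higher, and their sum was 21.3 to 74.9 CPM in knockout libraries and 21.4 to 33.9 CPM in the wild type. The 2 tested keratinocyte markers were lower, Krt1 was at 0 in all libraries, and the sum was 12.5 to 18.1 CPM against 20.6 to 48.9 CPM. Of 9 tenocyte markers 6 were lower and 1 higher. The part of these cell types in the values of the endothelial genes was not tested.

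Each gene was also set against Cdh5 in the same library, to describe the mix of markers apart from their total. The log2 ratio of Pecam1 to Cdh5 was 0.42 ± 0.47 in knockout libraries and -1.79 ± 0.76 in the wild type, a difference of 2.21 (exact permutation test, two-sided, p = 1.55e-04, the smallest possible, adjusted over 9 genes 3.50e-04). Plvap rose relative to Cdh5 by 1.91 (exact permutation test, p = 3.11e-04, adjusted 5.59e-04). The difference was -4.47 for Lyve1, -3.56 for Prox1, -3.24 for Ackr1 and -2.34 for Gja5 (exact permutation tests, adjusted p from 3.50e-04 to 6.99e-04), largely a restatement of the rise of Cdh5 itself. For Vwf the difference, -0.56, did not exceed the spread over libraries (p = 0.0900 by exact permutation, adjusted 0.0900), but it passed without wild type library 3 (-0.68, adjusted 0.0485).

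Cldn5 rose against Cdh5 by 0.71 and Emcn by 0.92 (exact permutation tests, p = 0.0244 and 0.0263, adjusted 0.0296 each). Both missed the threshold with total counts (adjusted 0.0841 and 0.0542), without the muscle-rich libraries (adjusted 0.0781 and 0.114) and without any of knockout libraries 4, 5 and 6 or wild type library 8, Emcn also without wild type library 4 or 7. With a prior count of 0.5 in place of 2 the differences were 2.07 and 1.76, because most wild type values of these genes are at or under the floor of 3 counts.

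**Figure D4:**
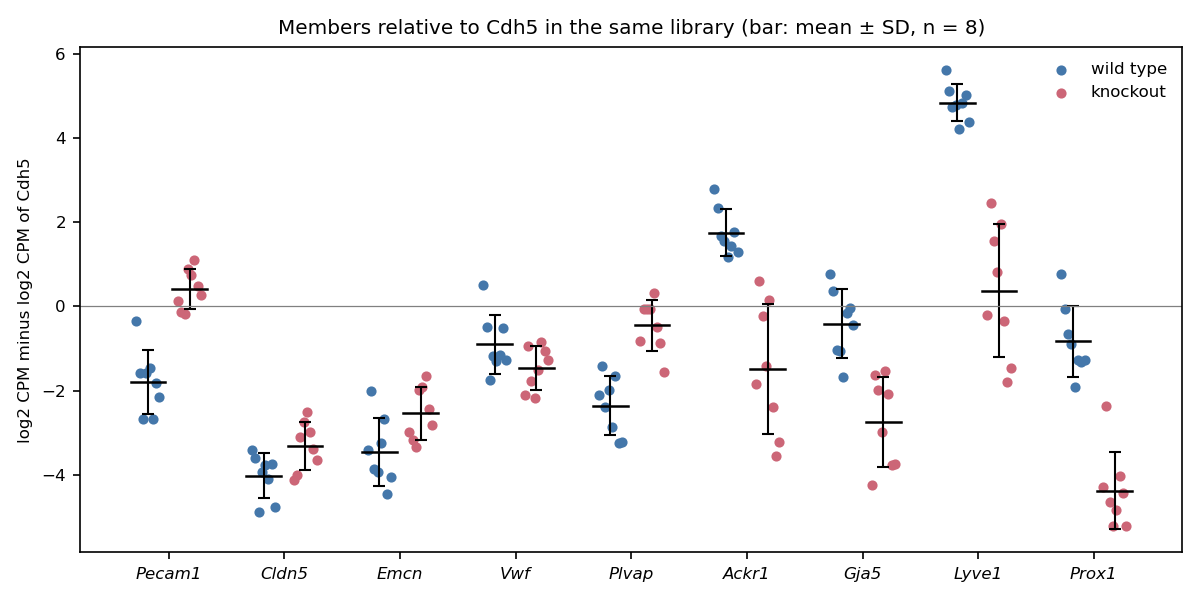
Log2 CPM of each endothelial gene minus log2 CPM of Cdh5 in the same library (y axis) in wild type and knockout (colours). Points are libraries and bars are mean ± SD (n = 8). Pecam1 shifted from -1.79 to 0.42 on average and Lyve1 from 4.84 to 0.38, and the knockout libraries are the more scattered for Ackr1 and Lyve1.

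The wider lists of vessel genes moved unevenly. Of 30 further genes of endothelium in general 25 were tested, 19 were higher, none was lower and 6 did not pass, and the median log2 fold change was 1.47 against 0.02 for all tested genes, of which 25.6% were higher and 22.7% lower. These 2 shares are the background for the counts of each list below. A gene could pass the filter through the knockout libraries alone, and several tested list genes were near 0 in the wild type. The wild type medians were 0.042 CPM for Robo4, 0.181 for Nos3, 0.404 for Hey1, 0.243 for Apln and 0.248 for Foxc2. The counts and medians of the lists are therefore a description. The 3 largest were Robo4 (7.04), a guidance receptor, and the adhesion receptors Adgrl4 (6.88) and Adgrf5 (5.95), the first from 5 counts in all wild type libraries together. Nos3, the endothelial nitric oxide synthase, went from 0.213 ± 0.193 to 9.36 ± 4.54 CPM, and Tie1, an endothelial receptor kinase too low in the wild type to be tested, had 9 counts there and 1787 in the knockout. The 3 smallest were Fli1 (-0.22, adjusted p = 0.0618), Tek (-0.08, adjusted p = 0.738) and Lmo2 (0.05, adjusted p = 0.723), and Calcrl, Ramp2 and Esam did not pass either (Benjamini-Hochberg over all tested genes, edgeR quasi-likelihood test). Tek, the angiopoietin receptor, was at 21.3 ± 7.00 CPM in knockout libraries and 22.7 ± 5.13 CPM in the wild type, and without the muscle-rich libraries it was lower by 0.41 (adjusted p = 0.0342), as was Fli1 by 0.32 (adjusted p = 0.0291).

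All 5 tested arterial genes of 11 were higher, with a median of 2.35. Hey1 (2.56), a Notch target, Notch4 (2.40), a Notch receptor, Mecom (2.35), a zinc finger factor, Unc5b (0.91), a netrin receptor, and Efnb2 (0.51), the arterial ephrin, made up this group. The Notch ligand Dll4, not tested, had 867 counts in knockout libraries and 18 in the wild type, 36.7-fold higher (interval 23.1 to 62.3), and its groups did not overlap. Of 12 capillary and tip cell genes 7 were tested, 5 were higher and none lower, with a median of 1.19. Apln, the apelin ligand of tip cells, rose by 8.34 (SE 0.257, Benjamini-Hochberg adjusted p = 2.13e-14 by the edgeR quasi-likelihood test), from 0.270 ± 0.156 to 91.1 ± 26.2 CPM, and Rgcc, a cell cycle regulator, by 2.53. Cd300lg, a receptor of capillary endothelium, rose by 1.84 and the fatty acid transporter Cd36 by 0.83, and the homeobox gene Meox2 did not pass (0.32, adjusted p = 0.0716). Angpt2, a ligand of Tek, rose by 1.19 (adjusted p = 0.0113) but by only 0.36 without the muscle-rich libraries (adjusted p = 0.132). The water channel Aqp1 was at 322 ± 88.8 and 322 ± 53.6 CPM. Not all list genes varied as Pecam1 did over the knockout libraries (4.58 to 148 CPM). Apln ran from 66.4 to 145 CPM and Unc5b from 59.4 to 85.1 CPM, whereas Dll4 ran from 0.594 to 15.2 CPM. Which cells the RNA of the list genes came from was not tested.

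Of 8 venous genes 4 were tested, 2 were higher and 1 lower, with a median of 0.40. Icam1, a leukocyte adhesion molecule, rose by 2.36 (adjusted p = 2.76e-11), Vcam1, another, by 0.43 (adjusted p = 0.00192), and the ephrin receptor Ephb4 fell by 0.43 (Benjamini-Hochberg adjusted p = 0.00153 by the edgeR quasi-likelihood test). Nr2f2, a factor of venous fate, differed by 0.38 (adjusted p = 0.170). The untested Selp, a selectin, had 167 counts in knockout libraries and 1 in the wild type, and Sele, another selectin, up to 27 per knockout library and none in the wild type.

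Of 7 lymphatic genes 5 were tested, 1 was higher and 2 lower, with a median of -0.05. Foxc2, a factor of lymphatic valves, rose to 4.77 ± 1.58 CPM, from 0.304 ± 0.318 CPM (a log2 change of 3.98 with SE 0.377, adjusted p = 4.95e-08), and the integrin gene Itga9 fell by 0.97 (SE 0.0847, Benjamini-Hochberg adjusted p = 1.35e-08 by the edgeR quasi-likelihood test). Ccl21a, a lymphatic chemokine, had 20 to 57 counts in the wild type libraries and 0 or 1 in the knockout libraries, where the 8 held 1 count together, a ratio of 363 (interval 64.7 to 14400). Ccl21a has near-identical copies in the mouse genome, so its counts are uncertain. Flt4, the VEGF receptor of lymphatic endothelium, not tested, had 259 counts in knockout libraries and 3 in the wild type, and Pdpn and Reln did not pass. The lymphatic genes that passed went in both directions.

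Exons of 7 of the 30 general, 5 of the 8 venous, 3 of the 11 arterial, 1 of the 12 capillary and 1 of the 7 lymphatic genes overlap those of another gene in GENCODE M21, Nos3, Ramp2, Ephb4, Nr2f2, Icam1, Vcam1, Selp, Mecom, Dll4 and Reln among those named here, so their counts are uncertain. Over these 5 lists together 32 of 46 tested genes were higher and 3 lower, against 25.6% and 22.7% of all tested genes. With no expression filter 53 of 68 were higher and 3 lower, against 21.4% and 17.0%. Without the muscle-rich libraries 30 of 45 were higher and 5 lower, against 21.9% and 19.0%, with a median of 0.89 in place of 1.26. With total counts 38 of 46 were higher and 2 lower, but that scale called 55.7% of all tested genes higher and 9.57% lower. In the venous list 3 of 4 were then higher and none lower, so that Ephb4 did not pass.

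**Figure D5:**
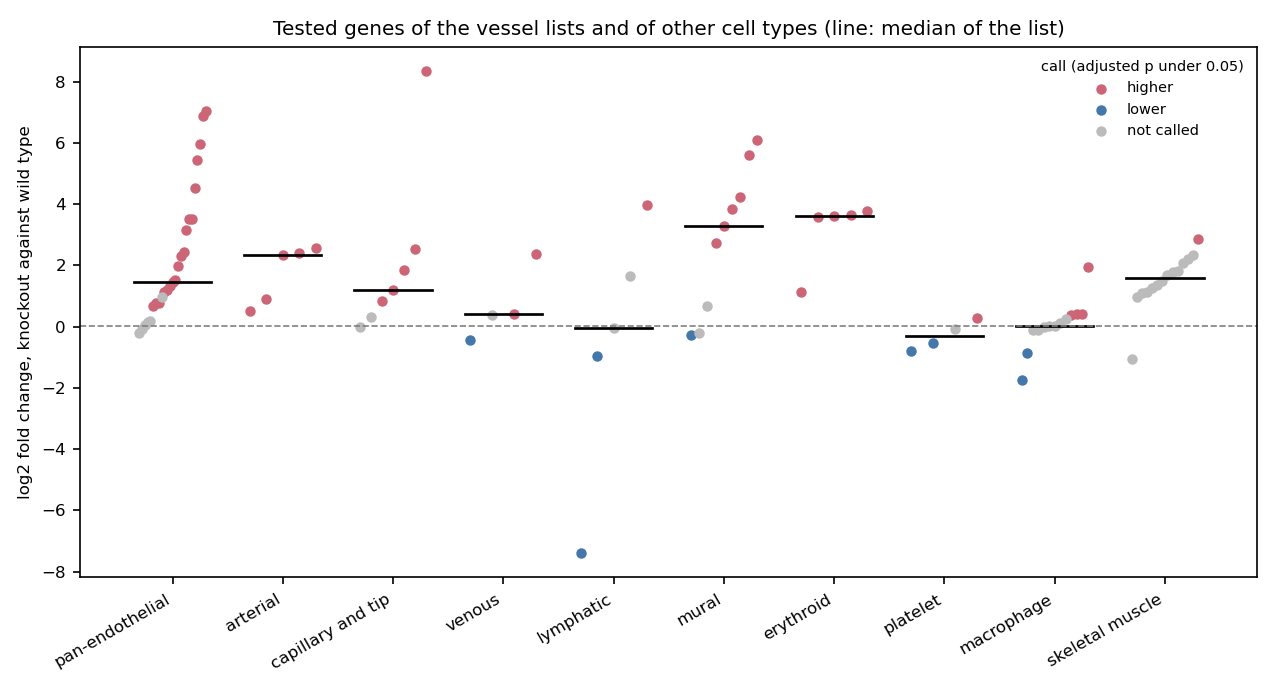
Log2 fold change of knockout against wild type (y axis) for each tested gene of 5 vessel lists and 5 lists of other cell types (x axis). Points are genes, coloured by their call at an adjusted p under 0.05, short lines are list medians, and the dashed line is the median of all tested genes, 0.02. The arterial points all lie above 0, and the lymphatic points reach from Ccl21a at -7.39 to Foxc2 at 3.98.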

How the data were processed

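Whole-number counts per gene were deposited by the authors for 16 libraries. Per the submitters' processing notes kallisto, featureCounts and build GRCm39 were used; roles, versions and strand setting are not given in the sources used here. Of 25719 Ensembl identifiers 25614 matched a symbol. The fit used the quasi-likelihood test of edgeR 4.0.16 in R 4.3.3 (two-sided, robust, TMM, default expression filter on genotype, genotype as the only term), with Benjamini-Hochberg adjustment over 14803 genes. CPM used TMM-scaled library sizes, and log2 CPM a prior count of 2. A count of 3 was the floor, 0.145 to 0.336 CPM depending on the library. Single values were compared by exact permutation over 12870 assignments. On simulated counts of 15049 genes the fit called 98 of 100 genes changed by 1 and 100 of 100 changed by 2 on the log2 scale, and 3.88% of its calls were false. The simulation gave all genes the same coefficient of variation, 0.208, and changed only 200 genes, none at the lowest levels. The knockout SDs of Pecam1, Vwf and Plvap were 0.895, 1.08 and 0.700 of their means, so these rates do not carry over to such genes.

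The genes and lists were chosen with earlier results of these data known. Named besides the 10 genes were those with the 3 highest and 3 lowest fold changes of each vessel list and of the mural and macrophage lists, and the 5 genes most like Pecam1 in the knockout. The rule also covered the other cell type lists, which are given as counts and sums. Nos3, Tie1, Dll4, Selp, Sele, Flt4, Angpt2, Calcrl, Ramp2, Esam, Cd163, Mrc1 and Krt1 were chosen after their values were seen. Correlations with muscle and mural sums were planned and left out. The muscle sums split the knockout libraries into 2 clusters. The mural sums formed no such clear split, at 340, 416, 444, 703, 728, 1219, 1392 and 1647 CPM in the knockout libraries. The relation of the mural sum to the endothelial genes was not tested. The muscle score is the mean log2 CPM of the 14 muscle markers. Leaving out the muscle-rich libraries was chosen after seeing the data. Alternatives were DESeq2 1.42.0 size factors and Wald test, total counts, no filter, a mean count of at least 10, limma-voom (limma 3.58.1) with quality weights, non-robust dispersions, a replicate block and each library left out in turn. Replicate numbers did not pair the libraries. No library was a repeat of another (chi-square per degree of freedom at least 6.56).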

Additional observations from a re-analysis of the deposited data

Results flagged for a closer look

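Wild type library 3 stood apart from the other 7 wild type libraries in the sums of 2 marker lists. Its keratinocyte sum was the highest, at 5.61 on the log2 CPM scale against 4.85 for the next library. Its tenocyte sum was the lowest, at 17.00 against 17.81 for the next. Both gaps exceeded Dixon's critical value for 8 values, at the 95% level. Among 52 such checks of the endothelial genes, Vhl and the lists, chance gives about 2.6. None of the 10 endothelial genes met this criterion in either genotype. Lyve1, Ackr1, Prox1 and Plvap had their highest wild type values in this library, 119, 13.95, 2.65 and 0.701 CPM.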

How the results depend on the processing

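Pecam1, Cdh5, Vwf, Plvap and Lyve1 kept their direction and their side of the threshold under 27 alternatives each, and Cldn5 and Emcn under 11. The lowest and highest log2 fold changes were 4.80 and 6.42 for Pecam1, 2.42 and 3.92 for Cdh5, 1.52 and 3.73 for Vwf, and 4.78 and 5.83 for Plvap. Ackr1 turned to 0.073 with total counts. Prox1 turned from 0.00 to -0.0083 with DESeq2 size factors, -0.012 with no filter, -0.010 with a mean count of at least 10, to -0.049 with the Wald test, to -0.50 with voom, to -0.73 with the muscle covariate, to -1.33 without the muscle-rich libraries and to -1.30 without knockout libraries 6, 7 and 8, and ranged from -0.47 to 0.19 when each library was left out. Gja5 missed the threshold with voom (0.87, adjusted p = 0.0604), with the muscle covariate and without knockout libraries 6, 7 and 8 (0.12, adjusted p = 0.707). The cause was not tested.

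Of the 10 genes, the number lower was 1 to 2 when each library was left out, 2 without wild type library 6, through Ackr1, and 2 without the muscle-rich libraries and without knockout libraries 6, 7 and 8, through Prox1. Over the 5 vessel lists, 53 genes were higher with no filter, which tests more genes, and 5 were lower in both settings that drop muscle-rich libraries.

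Same-numbered libraries did not pair (correlation of deviations -0.397 to 0.394, and 1 of 8 correlated best with its own number). With the replicate block Prox1 was at -0.36 (adjusted p = 0.636), 7011 genes passed in place of 7150, and none of the 10 genes changed its call, while over the 5 vessel lists 31 genes were higher and 4 lower in place of 32 and 3.

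Without the 2 libraries farthest from the median, r with Pecam1 turned in the knockout to -0.885 for Ackr1 and -0.399 for Lyve1, and leaving out each library in turn gave -0.250 to 0.512 and -0.0192 to 0.391. In the wild type it turned to -0.129 for Cdh5, -0.0640 for Ackr1 and 0.0298 for Gja5, and leaving out each library gave -0.00171 to 0.735 for Cdh5, -0.850 to 0.165 for Emcn, -0.561 to 0.0398 for Plvap, -0.306 to 0.0789 for Gja5 and -0.176 to 0.531 for Prox1. With the macrophage sum it turned to 0.215 for Pecam1, 0.0728 for Cdh5 and 0.178 for Plvap. Low counts limit Cldn5, Emcn, Prox1 and all wild type correlations with Pecam1.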
